A study of Mus musculus with 20 samples.

Results

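Endothelial cells of the heart were compared with endothelial cells of the brain in old mice. The comparison used 6 of the 20 sequenced samples, the 3 heart and the 3 brain libraries labelled 24 months, and joined the heart and brain count tables by Ensembl gene. Every library came from wild type C57BL/6 animals, and no treatment is given. Per the labels, minced organs were digested, CD31 cells were enriched on magnetic beads, and cells positive for CD31 and negative for GP38 and CD45 were sorted for RNA. CD31 is the endothelial junction protein encoded by Pecam1, GP38 (podoplanin) marks lymphatic vessels and fibroblasts, and CD45 marks leukocytes. The GP38 gate also acts on lymphatic endothelium, and each library pools the endothelial cells of whatever vessels the sort kept. RNA was amplified as full-length cDNA before library preparation. The labels name no animal, so it is not known whether a heart and a brain library share one, and p-values measure the spread between these libraries.

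The blood vessels of the 2 organs do different work. Brain endothelium forms the blood-brain barrier: its cells are sealed by tight junctions, move little cargo in vesicles, and carry glucose, amino acids, hormones and drugs across by dedicated transporters. Wnt/beta-catenin signalling from the surrounding neural tissue is known to induce and maintain this state. Heart muscle burns mostly fatty acids, and its capillary endothelium is known for a continuous lining rich in caveolae and for the proteins that release, bind and pass on lipids, which are under control of PPAR gamma and of the Meox2/Tcf15 pair of transcription factors.

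The sequence upstream of the RefSeq start of 6 genes called between the organs is printed here, including a pair of neighbouring copies called in opposite directions. Each run is the 250 bases before the RefSeq transcription start (GRCm38.p6), written 5′ to 3′ on the strand of the gene. Capitals mark matches on either strand to the nuclear receptor motif AGGTCA, to which PPAR gamma and its partners can bind, and to the TCF/LEF core CTTTGA, the motif of the Wnt pathway's transcription factors. Cd36, Aqp1 and Meox2 were higher in heart, Slc19a3 and Abcb1a in brain, and Abcb1b, the neighbour and close copy of Abcb1a, in heart.
Cd36, chr5:17835897-17836146, minus strand: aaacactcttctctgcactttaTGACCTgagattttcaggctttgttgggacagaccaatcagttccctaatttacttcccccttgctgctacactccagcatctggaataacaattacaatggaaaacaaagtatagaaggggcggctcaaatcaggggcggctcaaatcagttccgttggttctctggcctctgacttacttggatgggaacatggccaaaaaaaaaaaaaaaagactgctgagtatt
Aqp1, chr6:55336049-55336298, plus strand: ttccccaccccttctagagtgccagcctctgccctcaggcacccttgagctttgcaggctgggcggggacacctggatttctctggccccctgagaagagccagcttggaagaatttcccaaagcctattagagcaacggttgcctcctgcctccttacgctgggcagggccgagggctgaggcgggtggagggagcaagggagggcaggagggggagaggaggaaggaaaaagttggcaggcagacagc
Meox2, chr12:37108290-37108539, plus strand: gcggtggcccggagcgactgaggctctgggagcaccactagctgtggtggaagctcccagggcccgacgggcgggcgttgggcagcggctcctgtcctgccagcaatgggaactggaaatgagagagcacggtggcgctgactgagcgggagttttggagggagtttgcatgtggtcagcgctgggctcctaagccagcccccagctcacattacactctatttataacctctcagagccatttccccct
Slc19a3, chr1:83038449-83038698, minus strand: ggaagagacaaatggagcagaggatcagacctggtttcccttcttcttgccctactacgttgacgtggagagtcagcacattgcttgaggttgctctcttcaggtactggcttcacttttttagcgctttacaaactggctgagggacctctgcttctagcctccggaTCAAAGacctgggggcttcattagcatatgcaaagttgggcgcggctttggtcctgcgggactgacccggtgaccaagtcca
Abcb1a, chr5:8566841-8567090, plus strand: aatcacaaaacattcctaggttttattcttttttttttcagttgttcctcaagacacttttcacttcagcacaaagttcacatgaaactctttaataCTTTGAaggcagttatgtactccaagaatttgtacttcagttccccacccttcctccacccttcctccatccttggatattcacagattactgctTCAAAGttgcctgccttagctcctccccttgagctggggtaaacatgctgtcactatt
Abcb1b, chr5:8797897-8798146, plus strand: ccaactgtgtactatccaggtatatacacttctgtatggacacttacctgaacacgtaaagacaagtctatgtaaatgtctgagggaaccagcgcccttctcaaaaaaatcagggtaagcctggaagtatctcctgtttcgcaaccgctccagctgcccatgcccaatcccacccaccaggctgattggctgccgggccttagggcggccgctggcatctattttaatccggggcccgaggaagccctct
The Cd36 window held AGGTCA on the opposite strand, 223 to 228 bases upstream of the start. The Slc19a3 window held CTTTGA on the opposite strand, 77 to 82 bases upstream. Abcb1a had this core on its own strand at 148 to 153 bases and on the opposite strand at 53 to 58 bases. The windows of Aqp1, Meox2 and Abcb1b held neither set of letters. In the GENCODE M21 annotation (GRCm38) the Cd36 window lies within the longer Cd36 gene body, that of Meox2 within Gm48617, that of Abcb1a within Rundc3b on the other strand and 92987 bases before the Abcb1a gene as GENCODE places it, and 203 bases of that of Abcb1b are exon of the antisense gene Gm5106. Among 32851 such windows of all genes 14.02% held AGGTCA and 13.83% held CTTTGA. For windows of genes called higher in heart the shares were 10.89% and 8.93%, and for genes called higher in brain 11.44% and 10.66%. Over the windows of all genes tested they were 10.76% and 10.58%. A match is only a run of letters and not a bound site.

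Heart libraries held 38338152 to 44359038 counted reads and brain libraries 39155805 to 60492548. Levels are CPM, read counts brought to a common library size with TMM factors and not scaled by gene length, so they compare libraries for a gene and not genes with each other. They are given per library or as mean ± SD (n = 3 libraries). Fold changes are heart over brain on the log2 scale with a standard error (SE), and a gene is called at an adjusted p under 0.05 in edgeR's quasi-likelihood test with Benjamini-Hochberg adjustment over all genes tested. The SE was derived as the absolute log2 fold change divided by the square root of that test's F statistic. It is approximate, above all for genes at or near 0 reads in 1 organ. Lane numbers in the labels were 1, 2 and 4 for heart libraries 1, 2 and 3 and 2, 3 and 3 for the brain libraries. Number 2, of heart library 2 and brain library 1, was the only lane number found in both organs. The labels do not say what libraries of an equal lane number share. Pecam1 (CD31) stood at 1648, 1638 and 1683 CPM in heart libraries 1, 2 and 3 and 1610.4, 1391 and 1544 CPM in brain libraries 1, 2 and 3. Each heart library lay slightly above each brain library, and the gene was not called (adjusted p = 0.449). Ptprc, which encodes CD45, stood at 1.91 ± 3.26 CPM in heart and 1.498 ± 1.31 CPM in brain, with 0.0252, 5.67 and 0.02300 CPM in the heart libraries. Pdpn, which encodes GP38, had 55 reads over the heart libraries and 2 over the brain libraries and was too low to be tested. Heart library 2 carried more leukocyte RNA than the remaining heart libraries: the summed level of 15 leukocyte genes was 25.5, 80.7 and 33.1 CPM in heart and 25.8, 32.5 and 19.4 CPM in brain.

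Of 15100 genes tested, 2393 (15.8%) differed between the organs, 1188 (7.87%) higher in heart and 1205 (7.98%) higher in brain. Over the same genes DESeq2, an alternative test, called 1728 higher in heart and 1733 higher in brain. At an unadjusted p under 0.05 in edgeR 4216 genes (27.9%) passed. The counts of genes in each list below are to be read against the shares of the same test. All 2393 had libraries that did not overlap, which a call from 3 against 3 libraries favours, so this is no separate check. The pair of lane number 2 differed in the same direction for each as a consequence, which is no check of lane either. Regardless of the test, the heart libraries all lay above the brain libraries for 2863 genes (19%) and the brain libraries above the heart libraries for 2713 genes (18%). The median log2 fold change over all genes tested was 0.01. With lane as a term in the fit, 874 genes were called, and without brain library 3 the count was 1578. The organ difference of the fit with lane rests on the pair of lane number 2 alone. Counts from it, here and below, therefore cannot show dependence on lane. Some genes were found in 1 organ only: 201 genes with at least 1 CPM in heart had no read in brain, and 152 had the reverse pattern. RNA from bulk samples cannot tell fewer cells of a type from less RNA per cell.

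**Figure D1:**
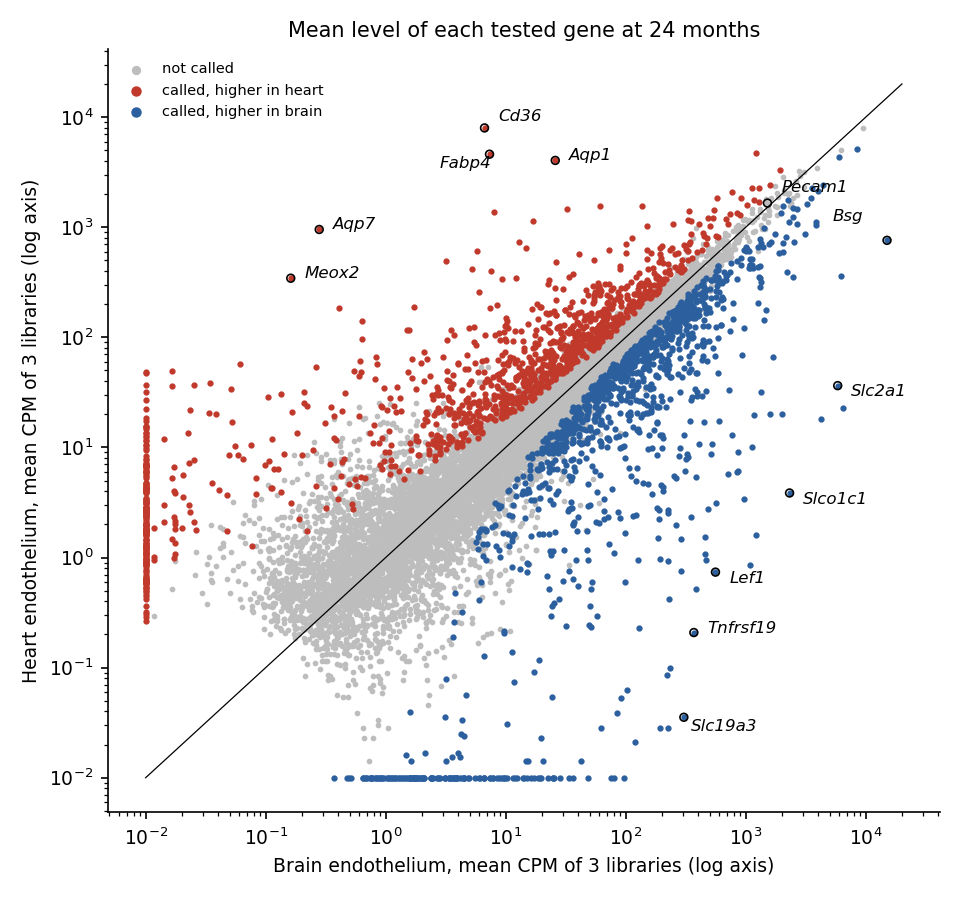
Mean CPM of every tested gene in brain endothelium (horizontal, log axis) and heart endothelium (vertical, log axis) at 24 months, with means under 0.01 CPM drawn at 0.01. Red points are the 1188 genes called higher in heart, blue points the 1205 called higher in brain, grey points were not called, and Pecam1 lies by the line of equal levels while Cd36 and Slc2a1 lie far from it.

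Genes for taking up fatty acids from the blood were far higher in heart. Of 32 genes listed for fatty acid uptake and use 30 were tested, and 11 were called higher in heart, 4 higher in brain and 15 in neither direction, with a median log2 fold change of 0.37. Cd36 (ENSMUSG00000002944, chromosome 5, 17781690 to 17888801 on the minus strand), the membrane protein that takes up long-chain fatty acids, stood at 8931, 7026 and 7952 CPM in heart libraries 1, 2 and 3 and 11.5, 5.07 and 3.36 CPM in brain libraries 1, 2 and 3. All heart libraries were far above all brain libraries, of which number 1 was the highest. Cd36 had a log2 fold change of 10.23 (SE 0.59, adjusted p = 0.000114). Fabp4 (ENSMUSG00000062515, chromosome 3, 10204088 to 10208576 on the minus strand), a cytoplasmic fatty acid carrier, stood at 5539, 4171 and 4096 CPM in heart and 6.42, 8.06 and 7.504 CPM in brain. The libraries of each organ lay close together and far from the other organ. Fabp4 had a log2 fold change of 9.29 (SE 0.21, adjusted p = 7.77e-06). Its family member Fabp5 ran in the same direction, with 109.9, 89.4 and 91.00 CPM in heart and 0.778, 0.687 and 0.442 CPM in brain. Fabp5 had a log2 fold change of 7.27 (SE 0.28, adjusted p = 3.20e-05).

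The enzyme and the anchor that free fatty acids from lipoproteins were high in heart together. Lpl, lipoprotein lipase, stood at 2090.03, 1051 and 947 CPM in heart and 9.44, 9.96 and 4.64 CPM in brain, and heart library 1 was the highest. Lpl had a log2 fold change of 7.42 (SE 0.51, adjusted p = 0.000183). Gpihbp1, which holds the lipase on the capillary wall, was also highest in heart library 1, with 1567, 993 and 862 CPM in heart and 18.5, 18.8 and 13.8 CPM in brain. Gpihbp1 had a log2 fold change of 6.07 (SE 0.31, adjusted p = 7.02e-05). Mgll, which splits monoglycerides, had 1557 ± 412 CPM in heart and 137 ± 12.8 CPM in brain (log2 fold change 3.51, SE 0.21, adjusted p = 0.000133). The transcription factors Meox2 and Tcf15, which are known to act together on Cd36 and Lpl in heart endothelium, were both higher in heart. Meox2 (ENSMUSG00000036144, chromosome 12, 37108540 to 37179534 on the plus strand) stood at 276, 393 and 363 CPM in heart and 0.326, 0 and 0.159 CPM in brain, and brain library 2 had no read. Meox2 had a log2 fold change of 11.01 (SE 0.60, adjusted p = 9.21e-05). Tcf15 had 623 ± 27.9 CPM in heart and 72.2 ± 4.86 CPM in brain (log2 fold change 3.11, SE 0.12, adjusted p = 3.20e-05). Meox1, the paralog of Meox2, was present in both organs and higher in heart, with 134 ± 35.2 CPM in heart and 22.9 ± 8.52 CPM in brain (log2 fold change 2.55, SE 0.32, adjusted p = 0.00237).

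The lipid list was not uniform. The 4 members higher in brain included Cpt1a, the gate for fatty acids into mitochondria (135 ± 28.2 against 314 ± 14.7 CPM, heart against brain, log2 fold change -1.22) and Hadh, an enzyme of beta-oxidation (82.4 ± 11.9 against 129 ± 6.45 CPM, log2 fold change -0.64). This count was 2 without heart library 2, without brain library 2 or without brain library 3, and 2 with lane as a term. The lipase Pnpla2 (341 ± 119.7 against 275 ± 66.2 CPM) and the HDL receptor Scarb1 (351 ± 29.1 against 441 ± 26.6 CPM) were not called. The lipid transfer protein Pltp ran in the other direction, with 345, 387 and 343 CPM in heart and 6429, 6177 and 6168 CPM in brain (log2 fold change -4.13, SE 0.10, adjusted p = 7.77e-06), and the sphingomyelin synthase Sgms1 had 351 ± 89.02 CPM in heart and 2466 ± 125 CPM in brain (log2 fold change -2.81, SE 0.19, adjusted p = 0.000179).

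Water and glycerol channels and the coat of caveolae were higher in heart. Of 15 genes tested from a list for caveolae and permeability 7 were called higher in heart and 4 higher in brain (median log2 fold change 0.56). Aqp1 (ENSMUSG00000004655, chromosome 6, 55336432 to 55348555 on the plus strand), a water channel, stood at 4109.99, 4656 and 3356 CPM in heart libraries 1, 2 and 3 and 22.3, 23.9 and 31.4 CPM in brain libraries 1, 2 and 3. Aqp1 had a log2 fold change of 7.29 (SE 0.23, adjusted p = 1.43e-05). Aqp7, which passes water and glycerol, stood at 979, 816 and 1066 CPM in heart and 0.803, 0 and 0.0354 CPM in brain. Brain library 2 had no read of it, and brain library 1 had the highest brain level. Aqp7 had a log2 fold change of 11.81 (SE 0.99, adjusted p = 0.000396). The caveolar coat proteins differed less and in the same direction. Cav1 had 4702 ± 288 CPM in heart and 1219.9 ± 120.4 CPM in brain (log2 fold change 1.95, SE 0.11, adjusted p = 9.21e-05), Cavin2 had 2255 ± 302 CPM in heart and 1119 ± 16.4 CPM in brain (log2 fold change 1.01) and Cavin1 had 1188 ± 27.3 CPM in heart and 686 ± 31.9 CPM in brain (log2 fold change 0.79). Cav2 was at 1587 ± 191 against 1023 ± 110.02 CPM, and Cavin3 at 230.4 ± 36.2 against 157 ± 33.03 CPM was not called (adjusted p = 0.105).

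Plvap, which forms the diaphragms of fenestrae and caveolae and is known to be low in mature brain capillaries, was higher in the brain libraries. It stood at 215, 244 and 244 CPM in heart and 587, 599 and 493 CPM in brain. Plvap had a log2 fold change of -1.26 (SE 0.13, adjusted p = 0.000925). Ehd4, a membrane remodelling ATPase, and Tmem252 were also higher in brain, with log2 fold changes of -0.71 and -4.32. The count of 4 higher in brain was 2 without heart library 2 and 2 with lane as a term. Outside the list, 2 more membrane proteins were far higher in heart: Cd300lg, a capillary glycoprotein of the CD300 family, at 1550.4 ± 84.4 CPM in heart and 61.6 ± 13.9 CPM in brain (log2 fold change 4.65, SE 0.19, adjusted p = 3.89e-05), and the tetraspanin Tspan7 at 1472 ± 111 CPM in heart and 32.2 ± 4.601 CPM in brain (log2 fold change 5.52, SE 0.16, adjusted p = 1.42e-05).

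Nearly all listed transporters of the blood-brain barrier were higher in brain. All 25 transporters and carriers were tested, 22 were called higher in brain, 0 in heart and 3 in neither direction, with a median log2 fold change of -6.33. At an unadjusted p under 0.05 and in DESeq2, 0 were higher in heart as well. Slc2a1 (ENSMUSG00000028645, chromosome 4, 119108711 to 119137983 on the plus strand), the barrier's glucose transporter, stood at 38.9, 32.4 and 37.8 CPM in heart libraries 1, 2 and 3 and 7779, 4837 and 4883 CPM in brain libraries 1, 2 and 3. Brain library 1 was the highest, and the heart libraries lay close together far below. Slc2a1 had a log2 fold change of -7.32 (SE 0.26, adjusted p = 2.75e-05). Slc7a5, which carries large neutral amino acids, stood at 22.6, 24.2 and 12.97 CPM in heart and 2153, 1634 and 2182 CPM in brain. Slc7a5 had a log2 fold change of -6.64 (SE 0.31, adjusted p = 5.76e-05). The organic anion transporter Slco1a4 stood at 7.99, 26.6 and 19.7 CPM in heart and 3237, 4737 and 4819 CPM in brain, and Slco1c1, which brings thyroxine into the brain, at 1.61, 7.31 and 2.64 CPM in heart and 2008, 2429 and 2513 CPM in brain. For both, the lowest heart library was number 1 and brain library 1 was the lowest of its group (log2 fold change -7.88, SE 0.54, adjusted p = 0.000179 for Slco1a4 and log2 fold change -9.22, SE 0.67, adjusted p = 0.000228 for Slco1c1).

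The lactate and ketone carrier Slc16a1 stood at 17.9, 25.6 and 16.5 CPM in heart and 1233, 1383 and 2202 CPM in brain, with brain library 3 highest. Slc16a1 had a log2 fold change of -6.33 (SE 0.33, adjusted p = 7.95e-05). Slc19a3 (ENSMUSG00000038496, chromosome 1, 83012523 to 83038448 on the minus strand), the thiamine transporter whose upstream sequence is printed above, stood at 0, 0.106 and 0 CPM in heart and 269, 315 and 331 CPM in brain. Its 5 heart reads all came from library 2, the heart library with the same lane number as a brain library (adjusted p = 4.54e-05). The taurine transporter Slc6a6 was abundant in both organs and higher in brain, with 741 ± 104 CPM in heart and 2504 ± 340.4 CPM in brain (log2 fold change -1.76, SE 0.15, adjusted p = 0.000482). The members not called were the creatine transporter Slc6a8 (10.1 ± 3.23 against 9.66 ± 3.31 CPM), the cationic amino acid transporter Slc7a3 (0.475 ± 0.822 against 8.198 ± 4.53 CPM) and the scaffold Slc9a3r2 (2157 ± 437 against 2072 ± 437 CPM).

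More membrane proteins and enzymes of the barrier were higher in brain. Bsg (ENSMUSG00000023175, chromosome 10, 79704491 to 79711969 on the plus strand), basigin or CD147, the partner that brings lactate carriers to the membrane, stood at 897, 676 and 706 CPM in heart and 16284, 13691 and 15096 CPM in brain. Bsg had a log2 fold change of -4.31 (SE 0.15, adjusted p = 2.08e-05). Itm2a stood at 9.45, 28.3 and 29.9 CPM in heart and 5967, 7254 and 6207 CPM in brain, with heart library 1 lowest. Itm2a had a log2 fold change of -8.16 (SE 0.53, adjusted p = 0.000154). Car4 and Car2, a membrane-bound and a cytosolic carbonic anhydrase, were both higher in brain. Car4 had 369 ± 70.7 CPM in heart and 700.4 ± 34.5 CPM in brain (log2 fold change -0.92, SE 0.16, adjusted p = 0.00828), and Car2 had 0.252, 2.698 and 8.44 CPM in heart and 134, 173 and 193 CPM in brain. Car2 had a log2 fold change of -5.45 (SE 1.00, adjusted p = 0.0114).

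**Figure D2:**
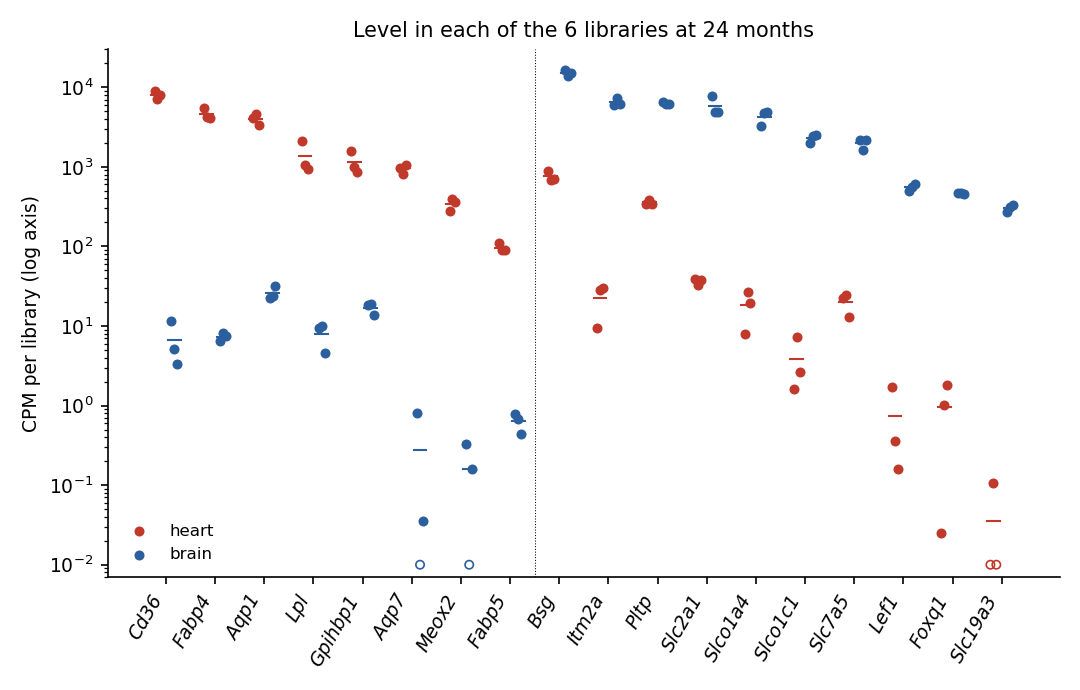
CPM (log axis) of 8 genes higher in heart, left of the dotted line, and 10 genes higher in brain, right of it, in each of the 3 heart (red) and 3 brain (blue) libraries at 24 months. Points are libraries, bars are means of 3, open points at 0.01 stand for 0 reads, and the 2 organs do not overlap for any of the 18 genes.

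Efflux pumps and drug-handling enzymes split between the organs. Of 24 listed, 9 were called higher in brain, 6 higher in heart and 9 in neither direction (median log2 fold change -0.64). Abcb1a (ENSMUSG00000040584, chromosome 5, 8660077 to 8748575 on the plus strand), the P-glycoprotein of the barrier, stood at 79.3, 150.1 and 132 CPM in heart libraries 1, 2 and 3 and 790.1, 1094 and 1025 CPM in brain libraries 1, 2 and 3. Abcb1a had a log2 fold change of -3.01 (SE 0.27, adjusted p = 0.00054). Abcb1b (ENSMUSG00000028970, chromosome 5, 8798147 to 8866315 on the plus strand), the adjacent gene that encodes the second mouse P-glycoprotein, ran the other way with 37.2, 69.9 and 64.00 CPM in heart and 2.84, 4.33 and 4.92 CPM in brain. Abcb1b had a log2 fold change of 3.82 (SE 0.35, adjusted p = 0.000571). In both organs library 1 was the lowest for both genes. The copies are alike in sequence, and how reads that fit both were counted is not given in the sources used here. Abcg2, the breast cancer resistance pump, had 286 ± 14.4 CPM in heart and 1309.6 ± 97.99 CPM in brain (log2 fold change -2.19, SE 0.11, adjusted p = 7.02e-05), and Abcc4 had 99.1 ± 18.9 CPM in heart and 588 ± 35.7 CPM in brain (log2 fold change -2.57, SE 0.17, adjusted p = 0.000154). Maoa, the monoamine oxidase, stood at 28.8, 32.5 and 35.6 CPM in heart and 383, 470.03 and 559 CPM in brain (log2 fold change -3.87, SE 0.19, adjusted p = 6.83e-05), and alkaline phosphatase Alpl at 513 ± 97.8 against 1133 ± 75.7 CPM (log2 fold change -1.14). Fmo1, Sult1a1 and Gstm1, enzymes of oxidation and conjugation, were higher in heart with log2 fold changes of 1.22, 2.06 and 0.62. With lane as a term the count of 6 higher in heart was 2.

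Tight junction genes were called in both directions. Of 17 tested, 6 were called higher in brain, 3 higher in heart and 8 in neither direction (median log2 fold change -1.33). Cldn5, the claudin that seals brain capillaries, stood at 479, 377 and 332 CPM in heart libraries 1, 2 and 3 and 2307, 2081 and 2219 CPM in brain libraries 1, 2 and 3, present in both organs and higher in brain. Cldn5 had a log2 fold change of -2.48 (SE 0.16, adjusted p = 0.00015). Ocln, occludin, stood at 2.24, 11.5 and 13.6 CPM in heart and 794, 868 and 927 CPM in brain, with heart library 1 lowest. Ocln had a log2 fold change of -6.56 (SE 0.68, adjusted p = 0.00103). Lsr, the lipolysis-stimulated receptor of tricellular junctions, had 6.09 ± 3.44 CPM in heart and 309 ± 69.99 CPM in brain (log2 fold change -5.66, SE 0.47, adjusted p = 0.000377), and the cingulin relative Cgnl1 had 53.3 ± 2.81 CPM in heart and 193 ± 48.4 CPM in brain (log2 fold change -1.86, SE 0.21, adjusted p = 0.0015). The junctional adhesion molecules Jam3 (177 ± 36.4 against 31.4 ± 7.82 CPM, log2 fold change 2.50), Jam2 (log2 fold change 0.60) and F11r (log2 fold change 0.56) were higher in heart, though only 1 of these 3 calls was left without heart library 2, without brain library 2 or without brain library 3. Cldn15, a claudin outside the list that forms cation pores, was also higher in heart, with 96.1, 58.1 and 43.8 CPM in heart and 1.28, 2.17 and 5.59 CPM in brain. Cldn15 had a log2 fold change of 4.44 (SE 0.62, adjusted p = 0.00376). The scaffold Tjp1 had 179.7 ± 71.5 CPM in heart and 452 ± 147 CPM in brain and missed the threshold (adjusted p = 0.0561), and the adhesion molecule Esam was at 1569 ± 443 against 1745 ± 243 CPM.

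Genes of Wnt/beta-catenin signalling were higher in brain where they differed. Of 24 tested, 14 were called higher in brain, 0 in heart and 10 in neither direction, with a median log2 fold change of -2.44. At an unadjusted p under 0.05, and in DESeq2, 1 was higher in heart. Lef1 (ENSMUSG00000027985, chromosome 3, 131110471 to 131224356 on the plus strand), a transcription factor of the pathway and also a target, stood at 1.69, 0.361 and 0.161 CPM in heart libraries 1, 2 and 3 and 504, 560.2 and 613 CPM in brain libraries 1, 2 and 3. Heart library 1 was the highest of its group and still far below every brain library. Lef1 had a log2 fold change of -9.60 (SE 0.78, adjusted p = 0.000361). Tcf7, the second factor of that family in the comparison, stood at 2.97, 5.57 and 4.58 CPM in heart and 172, 204 and 238 CPM in brain. Tcf7 had a log2 fold change of -5.55 (SE 0.29, adjusted p = 8.14e-05). Among known targets and feedback inhibitors, Tnfrsf19 (Troy) stood at 0, 0.5099 and 0.115 CPM in heart and 222, 442 and 444 CPM in brain, with brain library 1 the lowest of its group. Tnfrsf19 had a log2 fold change of -10.70 (SE 0.82, adjusted p = 0.000279). Apcdd1, a membrane inhibitor of Wnt signalling, stood at 0, 14.7 and 2.64 CPM in heart and 579, 722 and 839 CPM in brain. Apcdd1 had a log2 fold change of -6.93 (SE 1.43, adjusted p = 0.018). Notum, the secreted enzyme that inactivates Wnt proteins, stood at 75.5, 93.1 and 121 CPM in the brain libraries and had no read in the 3 heart libraries, at least 4318-fold higher when 3 reads over the heart libraries are taken as the floor (adjusted p = 0.000154). The antisense gene Notumos overlaps Notum, had 7.202, 15.1 and 20.4 CPM in the brain libraries and no read in heart, and cannot be told apart from it, since the strand setting of the counting is not given in the sources used here.

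Receptors and transducers of the pathway were called in part. Reck, which with an adhesion receptor presents Wnt7 ligands to the cell, had 26.99 ± 6.74 CPM in heart and 351 ± 77.05 CPM in brain (log2 fold change -3.70, SE 0.26, adjusted p = 0.000218). The receptor Fzd6 had 126 ± 25.05 CPM in heart and 483 ± 87.4 CPM in brain (log2 fold change -1.94, SE 0.21, adjusted p = 0.00118), whereas Fzd4, the receptor for norrin, stood at 183, 208 and 214 CPM in heart and 218, 199 and 188 CPM in brain and overlapped between organs (log2 fold change 0.00, adjusted p = 0.996). Ctnnb1, beta-catenin itself, was at 964 ± 160.01 against 1362 ± 116 CPM (adjusted p = 0.0635), and Tspan12, the coreceptor of Fzd4, at 232 ± 19.4 against 187 ± 24.8 CPM (adjusted p = 0.208). Sox17, an endothelial factor that responds to Wnt signals, was higher in brain at 519.9 ± 104 against 906 ± 38.7 CPM (log2 fold change -0.80, SE 0.15, adjusted p = 0.014), and its relative Sox7, at 624 ± 146 against 487 ± 77.1 CPM, was not called.

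**Figure D3:**
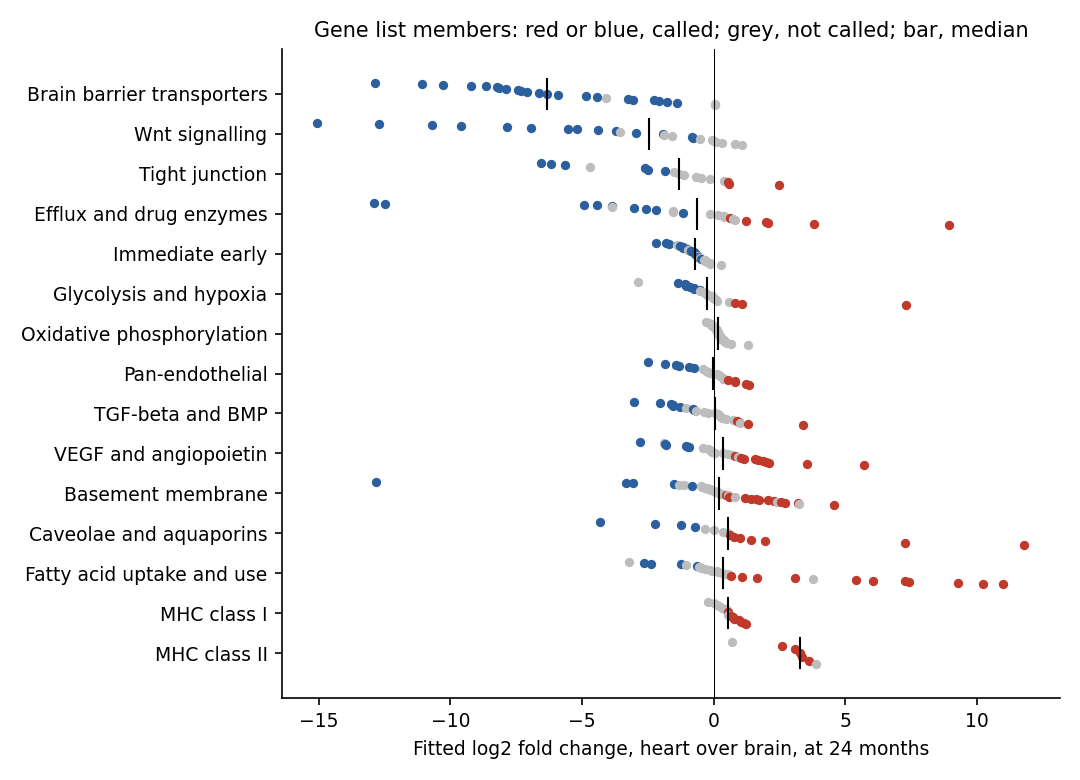
Fitted log2 fold change, heart over brain (horizontal), of every tested member of 15 gene lists (rows), red where called higher in heart, blue where called higher in brain and grey where not called, with a black bar at each list's median. Barrier transporters and Wnt genes extend to the left, fatty acid genes and caveolae split with their largest values to the right, and oxidative phosphorylation genes lie near 0.

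Transcription factors that mark body position and organ split almost evenly. Of 44 tested, 11 were called higher in heart, 12 higher in brain and 21 in neither direction. Foxq1 and Foxf2, forkhead factors known from brain vessels, were high in brain. Foxq1 stood at 0.0252, 1.02 and 1.79 CPM in heart and 472, 466 and 449.6 CPM in brain. Foxq1 had a log2 fold change of -8.91 (SE 0.87, adjusted p = 0.000783). Foxf2 stood at 0, 1.06 and 1.22 CPM in heart and 308, 276 and 279 CPM in brain (log2 fold change -8.53, SE 0.86, adjusted p = 0.000881), and its paralog Foxf1 at 6.45, 2.21 and 5.01 CPM in heart and 188, 198 and 201 CPM in brain. Foxf1 had a log2 fold change of -5.42 (SE 0.41, adjusted p = 0.00026). Tbx1, a T-box factor, stood at 0, 2.89 and 0 CPM in heart and 208, 188 and 179.7 CPM in brain, with heart reads in library 2 only. Tbx1 had a log2 fold change of -7.59 (SE 1.39, adjusted p = 0.0114). Foxc1 (log2 fold change -2.31, SE 0.17, adjusted p = 0.000228), Lmo2 (log2 fold change -1.64, SE 0.19, adjusted p = 0.00158) and Gata2 (log2 fold change -0.68, SE 0.13, adjusted p = 0.0124) were expressed in both organs and higher in brain. The flow-responsive factors Klf2 and Klf4 were not called, and library 1 of each organ had the highest level of both, with 2946, 1717 and 1481 CPM in heart and 3114, 1938 and 1857 CPM in brain for Klf2 and 597, 395 and 362 CPM in heart and 736, 548 and 598 CPM in brain for Klf4. With lane as a term the count of 11 higher in heart was 6.

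General endothelial genes were abundant in both organs, and the list's median lay near 0. Of 20 tested, 5 were called higher in heart, 6 higher in brain and 9 in neither direction (median log2 fold change -0.01), and the summed level was 18833 ± 618 CPM in heart and 24097 ± 541 CPM in brain. The count of 5 was 2 without heart library 2, 3 without brain library 2 or brain library 3, and 2 with lane as a term. Cdh5, VE-cadherin, stood at 471, 491 and 481 CPM in heart and 189, 185 and 193 CPM in brain and was higher in heart. Cdh5 had a log2 fold change of 1.35 (SE 0.10, adjusted p = 0.000262). The secreted factor Egfl7 was also higher in heart (log2 fold change 0.54), and the adhesion receptor Adgrl4 was higher in brain (log2 fold change -1.32, SE 0.10, adjusted p = 0.00028). The receptors for VEGF, the main growth factor of vessels, ran in opposite directions. Kdr (VEGFR2), which carries most of the growth signal, stood at 1934, 2349 and 2526 CPM in heart and 1053, 1348 and 1430.01 CPM in brain. Kdr had a log2 fold change of 0.83 (SE 0.16, adjusted p = 0.0126). Flt1 (VEGFR1), a decoy for the same ligand, stood at 1002, 829 and 782 CPM in heart and 3054, 3199 and 3034 CPM in brain. Flt1 had a log2 fold change of -1.83 (SE 0.12, adjusted p = 0.000154). Flt4 (VEGFR3) was higher in brain with a log2 fold change of -1.06. The coreceptors Nrp1 (1856 ± 165 against 580.4 ± 86.1 CPM, log2 fold change 1.68) and Nrp2 (206 ± 47.8 against 69.8 ± 18.3 CPM, log2 fold change 1.56) were higher in heart.

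In the whole list of VEGF, angiopoietin, apelin and endothelin genes 10 of 27 were called higher in heart and 6 higher in brain, and the second count was 3 with lane as a term. Aplnr, the apelin receptor, stood at 244, 554 and 405 CPM in heart and 8.53, 9.77 and 4.496 CPM in brain, with heart library 1 lowest. Aplnr had a log2 fold change of 5.73 (SE 0.45, adjusted p = 0.000319). The endothelin axis differed at both ends: the peptide Edn1 had 62.2 ± 22.5 CPM in heart and 430.2 ± 32.3 CPM in brain (log2 fold change -2.79, SE 0.28, adjusted p = 0.000871), and its receptor Ednrb had 266 ± 81.8 CPM in heart and 61.8 ± 21.6 CPM in brain (log2 fold change 2.11, SE 0.33, adjusted p = 0.00602). Tek, the angiopoietin receptor, was higher in brain (663 ± 105 against 1271 ± 267 CPM, log2 fold change -0.94), and Tie1, its partner receptor, at 1451 ± 109 against 1116 ± 85.6 CPM was not called (adjusted p = 0.0587). Ramp3, which shapes the adrenomedullin receptor, was higher in heart (log2 fold change 1.06), and Ramp2 stood at 518 ± 95.2 against 563 ± 110.05 CPM without a call.

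Arterial and venous markers gave no common direction. Of 17 arterial genes 5 were called higher in heart and 4 higher in brain, and of 17 venous genes 2 and 5. Efnb2 and Dll4, ligands of arterial cells, were higher in heart (log2 fold changes 1.10 and 0.64), and the chemokine Cxcl12 and the kinase Bmx higher in brain (log2 fold changes -0.86 and -2.22). The arterial counts fell to 3 in heart without heart library 2, heart library 3 or any brain library, and to 1 in brain without heart library 2 and 2 without brain library 3. Ephb4, the venous partner of Efnb2, was higher in heart at 581 ± 36.9 against 273 ± 25.2 CPM (log2 fold change 1.09). Vwf, von Willebrand factor, was higher in brain at 425 ± 69.5 against 1138 ± 134 CPM (log2 fold change -1.42, SE 0.16, adjusted p = 0.00131), and so was the adhesion molecule Vcam1 at 235 ± 48.9 against 456 ± 12.5 CPM (log2 fold change -0.96). Slc38a5, a glutamine transporter of brain veins and capillaries, stood at 3.13, 1.47 and 0 CPM in heart and 502, 434 and 437 CPM in brain. Slc38a5 had a log2 fold change of -8.24 (SE 1.08, adjusted p = 0.0028).

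Basement membrane genes differed member by member. Of 38 matrix genes tested 12 were called higher in heart, 5 higher in brain and 21 in neither direction (median log2 fold change 0.22). Col4a1 and Col4a2, which share 1 promoter region and form the main collagen of the layer, were both higher in heart. Col4a1 stood at 2018, 2209 and 2004 CPM in heart and 843, 722 and 757 CPM in brain (log2 fold change 1.42, SE 0.10, adjusted p = 0.000237) and Col4a2 at 1312, 1144 and 1218 CPM in heart and 543, 534 and 527 CPM in brain. Col4a2 had a log2 fold change of 1.20 (SE 0.10, adjusted p = 0.00039). Lama4, the laminin alpha chain of all vessels, was higher in heart at 279 ± 48.7 against 92.1 ± 50.7 CPM (log2 fold change 1.60, SE 0.39, adjusted p = 0.0342), and Lama5 at 97.7 ± 28.7 against 138 ± 18.7 CPM was not called. Fbln2 (log2 fold change 1.73, SE 0.11, adjusted p = 0.000165) and Sparc (log2 fold change 0.60, SE 0.14, adjusted p = 0.029) were higher in heart. Fn1, fibronectin, stood at 119, 211 and 198 CPM in heart and 1270.1, 1570.4 and 1604 CPM in brain and Vwa1, a partner of perlecan, at 212, 113 and 107 CPM in heart and 1731, 1191 and 1358 CPM in brain, both higher in brain (log2 fold change -3.07, SE 0.24, adjusted p = 0.000322 for Fn1 and log2 fold change -3.31, SE 0.32, adjusted p = 0.000703 for Vwa1). Lamb2 was higher in brain (log2 fold change -0.81). Lamc3, a laminin gamma chain, had 52.7, 70.9 and 103 CPM in the brain libraries and 1 read in heart, in library 2. The integrin receptors Itga1 (194 ± 31.4 against 208 ± 12.2 CPM), Itga6 (495 ± 77.5 against 588 ± 109.9 CPM) and Itgb1 (1195 ± 175 against 994 ± 42.6 CPM) were not called. With lane as a term 3 of the 5 calls higher in brain were counted.

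Within TGF-beta and BMP signalling 8 of 25 genes were called higher in brain and 4 higher in heart. The ligand Bmp6 was the largest heart member, with 385, 340.4 and 344 CPM in heart and 26.9, 38.2 and 35.5 CPM in brain. Bmp6 had a log2 fold change of 3.41 (SE 0.18, adjusted p = 7.74e-05). Tgfb1 (95.7 ± 11.7 against 49.4 ± 8.61 CPM, log2 fold change 0.95) and Smad1 (299 ± 36.1 against 159.7 ± 29.7 CPM, log2 fold change 0.90) were also higher in heart. Among receptors, Acvrl1 (ALK1) had 436 ± 56.8 CPM in heart and 1256 ± 192 CPM in brain (log2 fold change -1.53, SE 0.16, adjusted p = 0.000989) and Tgfbr2 had 218 ± 53.5 CPM in heart and 627 ± 29.6 CPM in brain (log2 fold change -1.53, SE 0.18, adjusted p = 0.00201), both higher in brain, and the coreceptor Eng, at 1350.2 ± 218 against 1126 ± 162 CPM, was not called. These counts varied with the libraries used. The 8 fell to 5 without brain library 1 or 3, 4 without brain library 2 or heart library 3, and 3 without heart library 2 or with lane as a term. The 4 fell to 2 without brain library 3 and 1 with lane as a term. Calls over all genes also fell, from 2393 with all libraries to between 1578 and 2022 without 1 library and to 874 with lane as a term.

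Antigen presentation genes were higher in heart wherever they were called. Of 17 class I genes tested 9 were called higher in heart and 0 in brain (median log2 fold change 0.56), and of 7 class II genes 5 and 0 (median 3.28). At an unadjusted p under 0.05 and in DESeq2, 0 of both lists were higher in brain. H2-D1 and H2-K1, the classical class I molecules of this strain, stood at 3698, 3365 and 2873 CPM in heart and 2104, 1763 and 1891 CPM in brain for H2-D1 and 1493, 1371 and 1203 CPM in heart and 876, 825 and 841 CPM in brain for H2-K1 (log2 fold changes 0.79 and 0.68). The peptide pumps Tap1 and Tap2 and their partner Tapbp were higher in heart by log2 fold changes of 0.75, 0.55 and 0.56, and the light chain B2m, at 2375 ± 369.7 against 1747 ± 168 CPM, was not called (adjusted p = 0.0836). The H2 genes of the class I list are similar copies, and reads can be split among them by the counting. Cd74, the invariant chain of class II, stood at 128, 296 and 145 CPM in heart libraries 1, 2 and 3 and 21.9, 14.3 and 22.5 CPM in brain libraries 1, 2 and 3. Heart library 2 was highest, and every heart library lay above every brain library. Cd74 had a log2 fold change of 3.28 (SE 0.38, adjusted p = 0.0017). H2-Ab1 (log2 fold change 2.62, SE 0.35, adjusted p = 0.00287), H2-Aa (log2 fold change 3.38, SE 0.36, adjusted p = 0.00118) and H2-Eb1 (log2 fold change 3.63, SE 0.42, adjusted p = 0.00158) were called in the same direction. The summed class II level was 248.9, 505 and 269 CPM in heart and 44.9, 37.6 and 40.5 CPM in brain, so the same heart library was highest in class II and in leukocyte RNA. The part of leukocyte RNA in the class II difference was not tested. Of 8 leukocyte genes tested, Cd79a, a B cell receptor component, was called higher in heart, and Adgre1, a macrophage receptor, higher in brain. Cd79a stood at 3.18, 10.5 and 3.61 CPM in heart and 0.903, 1.29 and 1.04 CPM in brain (adjusted p = 0.0453), so each heart library lay above each brain library. Adgre1 stood at 0, 0.0425 and 0 CPM in heart and 2.21, 0.924 and 1.72 CPM in brain (adjusted p = 0.0226). The call of Cd79a was lost without any 1 library other than heart library 1, and that of Adgre1 without any 1 library other than heart library 2. The class II count was 2 and the class I count 1 with lane as a term.

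Interferon-induced genes split, with 7 of 30 called higher in heart and 4 higher in brain. Iigp1 (528 ± 98.7 against 196 ± 32.8 CPM, log2 fold change 1.43) and Rsad2 (240.1 ± 36.9 against 103 ± 16.4 CPM, log2 fold change 1.22) were higher in heart, and Gbp3 (115 ± 23.6 against 267 ± 39.5 CPM, log2 fold change -1.22) and Irgm1 (245 ± 16.7 against 414 ± 93.6 CPM, log2 fold change -0.75) higher in brain. The chemokine Cxcl10 was higher in brain at 9.38 ± 1.33 against 26.8 ± 8.29 CPM (log2 fold change -1.52, SE 0.29, adjusted p = 0.0128). The 7 became 4 without heart library 2, brain library 2 or brain library 3 and 2 with lane as a term, and the 4 became 1 without heart library 3, 2 without brain library 2 or brain library 3 and 2 with lane as a term. Ly6a, Ly6c1 and Ly6e, abundant surface proteins of endothelium, were not called, and Ly6e stood at 2617 ± 422 against 2639 ± 297 CPM.

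Genes that control clotting and vessel tone differed singly. Of 24 tested, 4 were called higher in heart and 6 higher in brain. Plat, tissue plasminogen activator, stood at 344, 359 and 346 CPM in heart and 1747, 1119 and 1036 CPM in brain, with brain library 1 highest. Plat had a log2 fold change of -1.89 (SE 0.21, adjusted p = 0.00134). Ptgs2, the inducible cyclooxygenase, was higher in brain at 48.3 ± 17.3 against 335 ± 28.1 CPM (log2 fold change -2.79, SE 0.29, adjusted p = 0.00108), and Ptgs1, the constitutive cyclooxygenase, was higher in heart at 113 ± 18.1 against 28.6 ± 2.74 CPM (log2 fold change 1.98, SE 0.17, adjusted p = 0.000494). The thrombin receptor F2r stood at 191, 391 and 249.2 CPM in heart and 20.7, 33.3 and 36.7 CPM in brain. F2r had a log2 fold change of 3.19 (SE 0.34, adjusted p = 0.00117). Thrombomodulin (Thbd, 644 ± 82.7 against 787 ± 169.6 CPM) and endothelial nitric oxide synthase (Nos3, 435 ± 26.9 against 563 ± 37.7 CPM, adjusted p = 0.0668) were not called. The count of 4 was 2 with lane as a term.

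Immediate early genes, which are known to rise within minutes of stress and during tissue digestion, were higher in brain. Of 26 tested, 15 were called higher in brain and 0 in heart, with a median log2 fold change of -0.70. At an unadjusted p under 0.05 and in DESeq2, 0 were higher in heart as well. Fos stood at 6020.4, 5224 and 4289 CPM in heart and 9067, 7372 and 8800.2 CPM in brain (log2 fold change -0.70, SE 0.14, adjusted p = 0.0175), Jun at 2434 ± 158 against 4364 ± 265 CPM (log2 fold change -0.84, SE 0.09, adjusted p = 0.00127) and the nuclear receptor Nr4a1 at 1045, 1199 and 1068 CPM in heart and 3920.3, 3583 and 4056 CPM in brain. Nr4a1 had a log2 fold change of -1.80 (SE 0.10, adjusted p = 9.59e-05). The phosphatase Dusp1 (4343 ± 545 against 6007 ± 429 CPM, log2 fold change -0.47) and the RNA-binding protein Zfp36 (2283 ± 413 against 3532 ± 469 CPM, log2 fold change -0.63) gave smaller differences. Egr1 (7893 ± 785 against 9473 ± 1226 CPM), Junb (4983 ± 944 against 6223 ± 600.4 CPM) and Klf6 (902 ± 64.1 against 1149 ± 169 CPM) were not called. The count was 9 without brain library 3, without heart library 2 or without heart library 3, and 4 with lane as a term. The labels describe 1 digestion protocol for the series and no time per organ, and the part of handling in this difference was not tested.

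Among genes of energy use, some of glycolysis and hypoxia were higher in brain, and none of respiration was called. Of 25 glycolysis and hypoxia genes 8 were called higher in brain and 3 higher in heart (median log2 fold change -0.24). Pkm, pyruvate kinase, had 390.2 ± 22.8 CPM in heart and 734 ± 86.3 CPM in brain (log2 fold change -0.91, SE 0.13, adjusted p = 0.00354), Pfkl had 200.04 ± 27.5 CPM in heart and 336 ± 39.3 CPM in brain (log2 fold change -0.75) and the hypoxia-regulated Ndrg1 had 424 ± 56.03 CPM in heart and 1069 ± 302 CPM in brain (log2 fold change -1.33). Both oxygen-sensitive factors were higher in brain, Epas1 with a log2 fold change of -1.08 and Hif1a with -1.04, while Egln1 and Egln3, the prolyl hydroxylases that mark them for decay, were higher in heart. Egln1 had 248 ± 42.8 CPM in heart and 117 ± 15.5 CPM in brain (log2 fold change 1.08, SE 0.17, adjusted p = 0.00693), and Egln3 stood at 11.1, 7.44 and 6.95 CPM in heart and 0.0502, 0.0264 and 0.0708 CPM in brain. Egln3 had a log2 fold change of 7.32 (SE 0.62, adjusted p = 0.000424). The count of 8 was 4 without brain library 3, 5 without heart library 2 and 3 with lane as a term, and the count of 3 was 0 with that term. Of 26 oxidative phosphorylation genes 0 passed the test in either direction in edgeR (median log2 fold change 0.17). In heart 2 were higher at an unadjusted p under 0.05 and 1 in DESeq2, and in brain 0 by either, and the ATP synthase subunits Atp5b (954 ± 22.4 against 861 ± 54.3 CPM) and Atp5a1 (578 ± 29.1 against 542 ± 36.9 CPM) had similar means.

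Receptors for hormones and growth factors were divided, with 6 of 29 higher in heart and 6 higher in brain. Igf1r, the receptor for insulin-like growth factor, stood at 11.8, 11.3 and 20.2 CPM in heart and 139, 109 and 121 CPM in brain. Igf1r had a log2 fold change of -3.09 (SE 0.27, adjusted p = 0.000482). Lepr, the leptin receptor, stood at 2.44, 4.29 and 3.54 CPM in heart and 46.9, 74.4 and 76.7 CPM in brain. Lepr had a log2 fold change of -4.26 (SE 0.32, adjusted p = 0.000262). The growth factor Hbegf (171 ± 11.9 against 508 ± 111 CPM, log2 fold change -1.57) was also higher in brain. Pth1r, the receptor for parathyroid hormone, was higher in heart at 164 ± 37.6 against 22.5 ± 1.91 CPM (log2 fold change 2.86, SE 0.21, adjusted p = 0.000226), and Npr3, the clearance receptor for natriuretic peptides, at 35.7 ± 5.91 against 2.66 ± 1.58 CPM (log2 fold change 3.74, SE 0.45, adjusted p = 0.00199). Among 25 ion channel and pump genes 5 were called higher in brain and 3 higher in heart. Atp10a, a lipid flippase, stood at 0.126, 12.6 and 5.54 CPM in heart and 935, 861 and 807 CPM in brain, with heart library 1 far below the remaining heart libraries (log2 fold change -7.14, SE 1.21, adjusted p = 0.00828). With lane as a term the count of 3 channel and pump genes higher in heart was 1.

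The genes of largest fold were those at 0 or a trace in 1 organ. Among genes of at least 10 CPM in the higher organ, 25 had 3 or fewer reads over the brain libraries and 29 had 3 or fewer over the heart libraries. Themis2, a signalling adaptor, stood at 33.8, 33.02 and 29.7 CPM in the heart libraries and had no read in brain, at least 1438-fold higher. The sulfotransferase Chst1 was at least 696-fold higher and the imprinted RNA H19 at least 669.9-fold higher in heart on the same floor of 3 reads over the brain libraries. Wt1, a transcription factor of kidney and epicardium, stood at 62.7, 37.03 and 41.9 CPM in heart and 0.0251, 0 and 0 CPM in brain, its only brain read in library 1 (adjusted p = 7.02e-05). Acsl6, which activates long-chain fatty acids, stood at 47.4, 52.3 and 45.1 CPM in the brain libraries and had no read in heart, at least 2075-fold higher. Bche, which breaks down choline esters, had 53.4, 94.4 and 92.6 CPM in brain and 1 read in heart, and Ddc, the enzyme that makes dopamine from its precursor, had 186, 198 and 192 CPM in brain and 4 reads in heart (adjusted p = 5.18e-05 and 3.74e-05).

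RNA of other cell types was present at low levels and differed between organs. Cardiomyocyte genes summed to 139 ± 27.8 CPM in heart and 38.3 ± 9.01 CPM in brain, and 8 of 12 tested were called higher in heart and 0 in brain (0 in DESeq2 and at an unadjusted p under 0.05), with a median log2 fold change of 6.83 as fitted and 5.52 with genes at 0 set to their bound. Most of the brain sum came from Pln, at 28.3 ± 4.57 CPM in heart and 30.1 ± 8.43 CPM in brain. Myl4 added 3.53 ± 1.61 CPM in heart and 5.64 ± 0.466 CPM in brain. Neither was called in edgeR (adjusted p = 0.878 and 0.409). Troponin Tnnt2 had 23.96 ± 7.63 CPM in heart and 0.2197 ± 0.359 CPM in brain, myoglobin (Mb) had 21.7 ± 3.51 CPM in heart and 0.0236 ± 0.0409 CPM in brain, and Actc1, cardiac actin, had 16.6, 9.09 and 26.7 CPM in the heart libraries and no read in brain. Fibroblast and fibrillar collagen genes summed to 294 ± 60.5 CPM in heart and 72.6 ± 5.85 CPM in brain, with 5 of 13 called higher in heart and 0 in brain (0 by DESeq2 and by unadjusted p as well), among them Dcn, decorin, at 122 ± 27.1 against 4.96 ± 5.83 CPM (log2 fold change 4.63, SE 0.91, adjusted p = 0.015). Lum, lumican, another matrix proteoglycan, was at 34.1 ± 13.9 against 0.0515 ± 0.0446 CPM (log2 fold change 9.44, SE 0.79, adjusted p = 0.000391). That count was 2 without heart library 2 or brain library 2, 3 without heart library 3 and 1 with lane as a term. Oligodendrocyte genes summed to 56.96, 75.6 and 64.1 CPM in heart and 77.01, 214 and 91.9 CPM in brain, and brain library 2 was high: the myelin genes Mbp and Mobp stood at 19.9, 117 and 31.8 and 2.41, 42.9 and 10.6 CPM in the brain libraries. Of the astrocyte list, Gfap (0.128 ± 0.112 against 6.61 ± 3.18 CPM) and Slc1a3 (7.48, 15.5 and 6.64 CPM in brain, no read in heart) were higher in brain, whereas its members Aldh1l1, a folate enzyme, and Gja1, connexin 43, were higher in heart at 56.8 ± 2.44 against 0.0609 ± 0.04096 CPM and 493 ± 102 against 195 ± 16.2 CPM. The part of these cells in the organ differences was not tested.

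Pericyte and smooth muscle genes summed to 1753 ± 316 CPM in heart and 1765 ± 222 CPM in brain, and 1 of 15 was called higher in heart (Mcam, 283 ± 49.1 against 77.9 ± 25.02 CPM) and 2 in brain (Kcnj8, 6.63 ± 1.19 against 37.4 ± 9.84 CPM, and Vtn, 12.9 ± 8.08 against 307 ± 41.2 CPM), against 15.8% over all genes tested. Haemoglobin and further erythroid genes summed to 351 ± 78.2 CPM in heart and 753 ± 331 CPM in brain, with brain library 1 highest. In edgeR 0 of 5 were called, while 5 were higher in brain in DESeq2 and at an unadjusted p under 0.05. Of all 15100 genes tested DESeq2 called 1733 higher in brain, and 27.9% passed that unadjusted p in either direction. The haemoglobin copies Hba-a1 and Hba-a2 (108 ± 27.7 against 228 ± 89.1 CPM and 61.4 ± 17.6 against 107 ± 33.1 CPM) are near-identical, so reads can be split between them. Platelet genes (0 of 11) and microglia genes (0 of 9) were not called in either direction by edgeR, by DESeq2 or at an unadjusted p under 0.05. The choroid plexus list was called only at Aqp1, which heart capillaries express.

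Markers of lymphatic and endocardial endothelium were also counted. Of 8 lymphatic genes tested 1 was called higher in heart and 2 higher in brain. For 5 each heart library lay above each brain library, as for 19% of all genes tested. The summed level was 151 ± 17.3 CPM in heart and 423 ± 2.85 CPM in brain, where Flt4 held 226 and Tbx1 192 CPM. Prox1, the factor that sets lymphatic identity, had 290 reads in heart and 2 in brain (adjusted p = 0.0337). The hyaluronan receptor Lyve1 stood at 25.1, 13.3 and 30.8 CPM in heart and 1.78, 0 and 0 CPM in brain (adjusted p = 0.0751), and Mmrn1, at 10.5, 3.48 and 6.55 CPM in heart and 0, 0 and 1.73 CPM in brain, was not called either. The members higher in brain were Flt4 and Tbx1, given above. The heart count was 0 without any 1 heart library and with lane as a term. Of 13 endocardial genes 7 were called higher in heart and 3 higher in brain, and with lane as a term the counts were 3 and 2. Npr3 and Bmp6 are among those higher in heart, with Cytl1, a secreted protein, at 77.9 ± 4.296 against 39.6 ± 9.93 CPM (log2 fold change 0.98), and Plvap, Vwf and Foxc1 are those higher in brain. The part of lymphatic and endocardial cells in the organ differences was not tested.

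**Figure D4:**
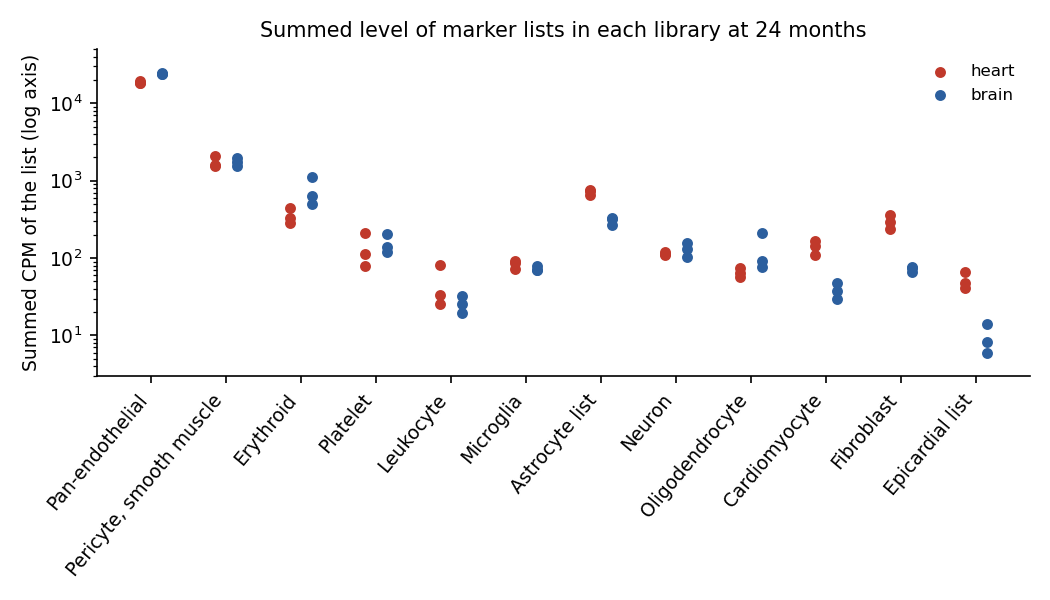
Summed CPM (log axis) of 12 marker lists in each of the 3 heart (red) and 3 brain (blue) libraries at 24 months, 1 point per library. The pan-endothelial sum is 18431 CPM or more in all 6 libraries, cardiomyocyte, fibroblast, astrocyte and epicardial lists are higher in all heart libraries, and heart library 2 stands above the rest in the leukocyte list. Wt1 alone held 47.2 CPM of the epicardial list's heart mean of 51.2 CPM. Of the 4 genes tested in that list 2 were called higher in heart and 1 higher in brain.

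The organ difference at 24 months was then set against the same difference at 3 months, from 3 heart and 3 brain libraries of the same strain and genotype, with all 4 groups in 1 fit of 16573 genes. Young heart library 3 was sequenced in 2 runs, and the labels give 1 of them an age of 4 months under a title of 3 months. In that fit 2331 genes (14.1%) were called between the organs at 24 months and 2223 (13.4%) at 3 months. Of the 2331, 2289 (98.2%) had the same sign at 3 months, and 1622 were called at both ages. Of these 1622, 2 had opposite signs, Clstn3 and Tmem190, which were picked out after their values were seen. The change of the organ difference with age was called for 1 gene (0.00603%), and 1070 genes (6.46%) passed an unadjusted p of 0.05. DESeq2 called 166.

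The gene called was Lepr. It stood at 2.45, 4.302 and 3.56 CPM in heart and 46.7, 74.9 and 76.8 CPM in brain at 24 months, and at 0.0794, 0.0245 and 0.0734 CPM and 38.1, 60.4 and 58.5 CPM at 3 months. Brain levels overlapped between ages, while each old heart library lay above each young one, so the brain-sided difference was smaller at 24 months (log2 fold change -4.26) than at 3 months (-9.66). The difference of the 2 was 5.39 (SE 0.52, adjusted p = 0.00847, edgeR). The call depended on the libraries used. With only the 3-month run of young heart library 3 the adjusted p was 0.013. Without young heart library 3 the adjusted p of Lepr was 0.0793, without the libraries numbered 1 it was 0.0561, and 0 genes were called, while 4 were called without young heart library 1, young brain library 1 or old heart library 3.

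The next genes by p did not pass the adjustment. Toward heart at 24 months these were Tmigd1 (adjusted p = 0.0638), Mlph (0.0638) and Scamp5 (0.0638). Tmigd1, an adhesion molecule, stood at 6.63, 6.73 and 6.79 CPM in heart and 0.02497, 0.0266 and 0 CPM in brain at 24 months, and at 4.66, 6.88 and 10.6 CPM and 3.03, 2.26 and 1.81 CPM at 3 months, and the old brain libraries were at or near 0. Mlph, a linker of vesicles to motors, stood at 1.97, 4.28 and 5.59 CPM in heart and 17.01, 6.65 and 9.695 CPM in brain at 24 months, and at 0, 0.0245 and 0 CPM and 4.202, 6.905 and 6.43 CPM at 3 months. Toward brain they were Cygb (adjusted p = 0.0638), H2-Q7 (0.0638), Car14 (0.0638), Clstn3 (0.0638) and Cxcl9 (0.0655). H2-Q7, a nonclassical class I gene with near copies, stood at 111, 112 and 109.8 CPM in heart and 61.5, 56.6 and 51.7 CPM in brain at 24 months, and at 50.6, 90.8 and 61.03 CPM and 7.48, 9.68 and 9.08 CPM at 3 months, higher in the old brain libraries than in the young ones. Cxcl9, an interferon-induced chemokine, stood at 52.1, 77.3 and 43.5 CPM in heart and 0.799, 1.303 and 0.425 CPM in brain at 24 months, and at 90.3, 59.4 and 75.1 CPM and 0.05002, 0 and 0.0477 CPM at 3 months. Clstn3, of opposite sign between the ages, stood at 0, 0 and 0 CPM in heart and 2.12, 2.07 and 1.74 CPM in brain at 24 months, and at 1.67, 0.906 and 0.388 CPM and 0, 0 and 0 CPM at 3 months.

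The median change of the log2 difference from 3 to 24 months was 0.21 for the barrier transporters, -0.12 for the Wnt genes, 0.06 for the fatty acid genes, -0.26 for caveolae and -0.42 for immediate early genes, and Lepr was the only listed gene called.

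**Figure D5:**
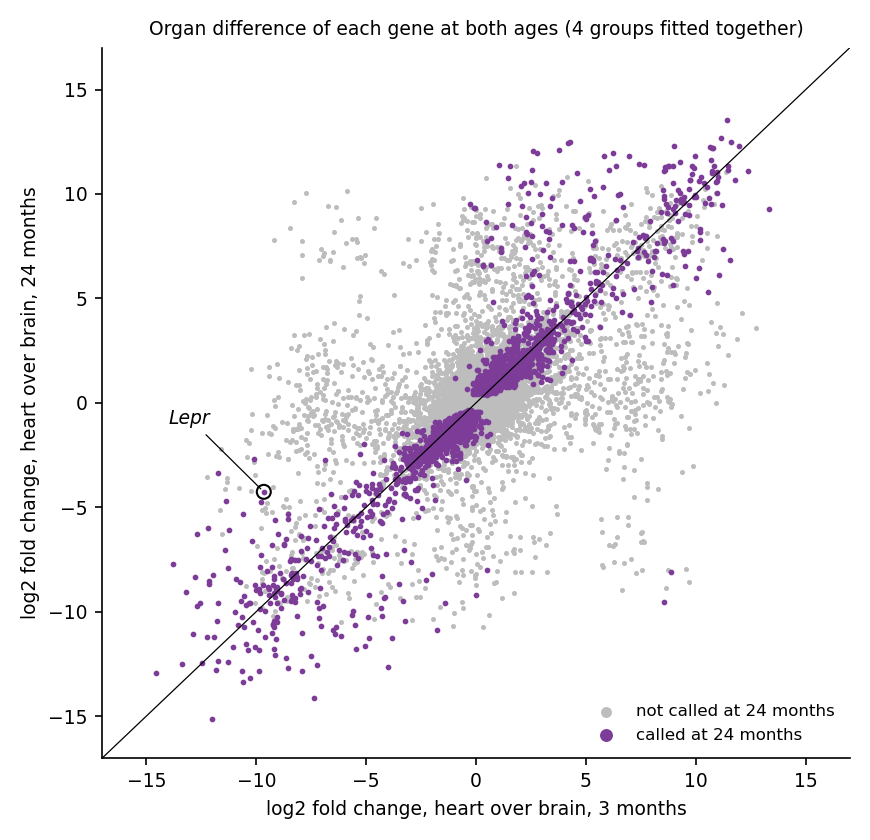
Log2 fold change, heart over brain, of each of the 16573 genes at 3 months (horizontal) and 24 months (vertical) from 1 fit of 4 groups, purple where called at 24 months and grey where not. The 2331 purple points follow the line of equal differences, and Lepr, circled, lies above it because its difference was smaller at 24 months.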

How the data were processed

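The authors deposited raw read counts per Ensembl gene, 1 table per organ, with no normalization. Alignment and counting tools listed in the submitters' processing notes are TopHat2 and HTSeq, with the build GRCm38/mm10. Versions, annotation release and strand setting are not given in the sources used here. Rows that name no gene made up 27.0% to 28.1% of the brain columns and were left out. Symbols and positions came from GENCODE M21 and covered 45143 of 46078 genes (97.97%), and promoter sequences from RefSeq (GRCm38.p6). Low genes were removed with filterByExpr at a minimum count of 10. Counts were scaled with TMM factors, and organs were compared by the quasi-likelihood test of edgeR 4.0.16 in R 4.3.3 over the 6 libraries, and over 12 for the comparison with 3 months, where 2 runs of 1 young heart library (1 with an age field of 4 months) were summed (chi-square per degree of freedom 1.08 between them, 61.2 or more between libraries). DESeq2 1.42.0 was an alternative. In counts simulated from these libraries, edgeR recovered 14% of 2-fold and 50% of 4-fold organ differences with 5.88% false calls, and DESeq2 38% and 63% with 40.2% false. For the change of the organ difference, edgeR recovered 4% and 26% with 3.23% false calls, and DESeq2 16% and 51% with 51.8% false. Few genes were changed in these simulations, which gave 68 calls by edgeR and 169 by DESeq2 for the organ difference. The false shares depend on that setting and do not carry over to the calls in the data.

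The comparison, the gene lists and the alternatives were chosen with earlier results of these data known. Named genes are the 15 of largest fold and the 15 of largest CPM difference in each direction, up to 6 called genes of a list, 3 against its majority and 3 not called, by level, the sorting genes, fixed paralog pairs, and the 5 of lowest p each way for age. Bounds against 0 use a floor of 3 counts over a group and cover counting error only. Some genes that the rule names are not reported here.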

Additional observations from a re-analysis of the deposited data

Results flagged for a closer look

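The organ difference of Lepr, the leptin receptor, changed with age. The log2 difference between heart and brain was less brain-sided at 24 months by 5.395 (SE 0.52, adjusted p = 0.00847 in edgeR). The level was 3.44 ± 0.934 CPM in heart and 66.1 ± 16.9 CPM in brain at 24 months, and 0.0591 ± 0.0301 and 52.3 ± 12.4 CPM at 3 months. Old heart libraries held 453 reads of the gene in all and young heart libraries 11, and this was the only gene of 16573 whose organ difference passed the test of a change with age. Without young heart library 3 its adjusted p was 0.0793, and without the libraries numbered 1 it was 0.0561. The cause was not tested.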

How the results depend on the processing

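The 2393 organ calls became 874 with lane as a term (355 higher in heart, 714 of the 2393 shared) and 1578 to 2022 when 1 library was left out. Only 1 lane number was found in both organs. The organ difference of the fit with lane therefore rests on heart library 2 and brain library 1 alone. Its lower count cannot show dependence on lane, and the cause was not tested. DESeq2 size factors gave 2387 calls, DESeq2 itself 3461, no count filter 2135, a minimum count of 50 gave 2326, 4 groups in 1 fit 2331 and leaving out both libraries numbered 1 gave 1954. No shared call changed sign. Leaving out heart library 2, the library highest in leukocyte genes, was chosen after seeing the data. Lists moved with lane as a term: class II genes to 2, class I to 1 and immediate early genes to 4, and the last count was 9 to 14 without 1 library. The counts for barrier transporters and Wnt genes moved by less than 1.5 times in these fits.

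A fit with a replicate block, pairing libraries by number, called 1915 genes (897 higher in heart, 1738 shared). Deviations of same-numbered libraries correlated at 0.085, 0.0124 and 0.0492, and those of differently numbered libraries at -0.0766 to 0.0393. With 3 libraries per organ these values cannot show whether the numbers pair the libraries.

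For the change with age, DESeq2 called 166 genes, edgeR 0 without the libraries numbered 1, and 0 to 4 without 1 library. With the replicate block it called 1.

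Of the 175 called genes named here none changed sign in any fit, 113 were called with lane as a term and 144 to 160 without 1 library. Only genes not called changed sign. With lane as a term the log2 fold changes of these were Atp5a1 (-0.0626), Eng (-0.166), Fzd4 (-0.0683), Itga1 (0.0715), Itga6 (0.295), Pnpla2 (-0.311), Slc6a8 (-0.998), Slc9a3r2 (-0.3497). Without 1 library they ranged over 0 for Fzd4 (-0.0493 to 0.0772), Itga1 (-0.193 to 0.0298), Klf2 (-0.516 to 0.107), Ly6e (-0.1397 to 0.0831), Pnpla2 (-0.00398 to 0.524), Ptprc (-5.797 to 0.934), Ramp2 (-0.266 to 0.0493), Slc6a8 (-0.153 to 0.383), Slc9a3r2 (-0.107 to 0.234). Fzd4 was at -0.00578 with no count filter, Ly6e at 5.51e-05 at a minimum count of 50, and Ptprc at -0.424 with the replicate block.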

Other observations

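Genes of the other organ that were at 0 in the remaining libraries were counted in each library. Of 9120 genes with at least 10 CPM in brain, 40 had no read in heart libraries 1 and 3, and 27 of these had reads in heart library 2, 606 in all. In heart library 1 the count was 2 of 15, with 131 reads, and in heart library 3 it was 6 of 19, with 214 reads. Of 9212 genes with at least 10 CPM in heart, 28 had no read in brain libraries 2 and 3, and 16 of these had reads in brain library 1, 380 in all. In brain libraries 2 and 3 the counts were 5 of 17 each, with 329 and 386 reads. The gene with most of these reads held 117, 153 and 78 in heart libraries 1, 2 and 3. In brain libraries 1, 2 and 3 it held 131, 130 and 307. Heart library 2 and brain library 1 both had lane number 2, and the part of lane in these counts was not tested. Such reads bear on the smallest values given above, as for the 5 heart reads of Slc19a3.

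The cell cycle list, not described above, had 4 of 20 genes called higher in heart and 0 in brain in edgeR. Over all genes tested the shares were 7.87% and 7.98%. In DESeq2, 10 were higher in heart and 1 in brain, and at an unadjusted p under 0.05 the counts were 11 and 1. Of all 15100 genes tested DESeq2 called 1728 higher in heart and 1733 higher in brain. At an unadjusted p under 0.05 in edgeR 27.9% of all genes passed in either direction. The kinases Plk1 and Aurkb, which act in mitosis, stood at 4.54, 7.95 and 3.43 CPM in heart and 0, 0 and 0.248 CPM in brain and 1.51, 3.78 and 3.13 CPM in heart and 0.0251, 0 and 0 CPM in brain, and the replication factors Pcna and Mcm6, at 35.02 ± 2.55 against 28.6 ± 3.76 CPM and 95.4 ± 12.9 against 108 ± 9.07 CPM, were not called. The summed level was 357 ± 23.7 CPM in heart and 266 ± 11.3 CPM in brain. Among senescence and stress genes 4 of 21 were called higher in heart and 1 in brain, against the same shares over all genes. Gdf15, a stress-induced cytokine, stood at 31.5, 29.1 and 20.6 CPM in heart and 5.87, 2.64 and 1.66 CPM in brain (log2 fold change 3.00), Igfbp5 at 196, 172 and 238 CPM in heart and 6.88, 33.9 and 13.8 CPM in brain (log2 fold change 3.47), both higher in heart. The cell cycle inhibitor Cdkn1a was not called (adjusted p = 0.485) and stood at 1599, 787 and 512 CPM in heart and 2146, 923 and 1292 CPM in brain, with library 1 of each organ the highest. Without heart library 2 the cell cycle count in heart was 1 and the senescence count 2, and with lane as a term both were 0.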
